A study of Mus musculus with 2 samples.

Results

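The genes described here encode the subunits and activators of the proteasome. They were chosen by name, as every gene of the count table whose RefSeq transcript carries a symbol of the Psma, Psmb, Psmc, Psmd or Psme series followed by a number, and 43 of 23571 genes met that rule. Where a gene had several transcripts, the one best covered by the libraries together stood for it. By role, 8 genes encode alpha subunits, 11 beta subunits, 6 ATPases of the regulatory particle, 14 further Psmd proteins and 4 activators.

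The proteasome is a barrel of stacked rings that cuts ubiquitin-tagged proteins into peptides. Its outer rings are built of alpha subunits, which gate the entry, and its inner rings of beta subunits, of which the beta1, beta2 and beta5 positions carry the proteolytic sites. Most cells fill these positions with the constitutive subunits Psmb6, Psmb7 and Psmb5. Interferon gamma induces the immunoproteasome subunits Psmb9, Psmb10 and Psmb8, which take the same positions and change the peptides made for MHC class I. In the thymus, cortical epithelial cells (cTECs) place Psmb11 at the beta5 position to form the thymoproteasome, which is needed for normal positive selection of CD8 T cells. Medullary thymic epithelial cells with high MHC class II (mTEChi) instead display antigens of peripheral tissues to developing T cells, many of them under control of the regulator Aire.

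The study asked how Clp1, a core factor of pre-mRNA 3' end cleavage and polyadenylation, affects 3'UTR length and transcript levels in mTEChi. Both libraries came from 1 lentigenic B6 mouse that carried 3 small hairpin RNAs against Clp1 behind the doxycycline-inducible TRE3G promoter with a green fluorescent reporter, and the TetOn3G transactivator under the EF1 promoter. Doxycycline pellets (2 g/kg) were given from the age of 3 weeks and for 2 weeks, so both groups had the drug. CD45-negative, MHC class II high cells with low or intermediate Ly51 were sorted into GFP+ cells (Clp1 knockdown) and GFP- cells (Ctr), with 1 library per group. With a single founder, and with Ctr cells defined by the absence of the reporter, effects of the knockdown cannot be told apart from any other difference between the sorted fractions. No test was possible, no p-value is given, and every difference below compares these libraries.

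The knockdown library held 37524730 reads over RefSeq transcripts and the Ctr library 28464803. Clp1 itself had 812 reads in the knockdown library against 1573 in Ctr, which is 39.7% of the Ctr level after scaling for depth (95% interval 36.4% to 43.2%). The mTEChi marker Aire had 8264 reads in the knockdown library and 7462 in Ctr. After scaling for depth its log2 ratio of knockdown over Ctr was -0.23 (95% interval -0.28 to -0.19), so its level was lower in the knockdown library. Of 8 mTEChi markers, 3 were higher in the knockdown library by the 2-fold rule given below. By that rule 19.1% of all genes with at least 50 reads were higher and 18.6% were lower. Many markers of other cells were lower in the knockdown library, namely 6 of 6 endothelial, 5 of 6 fibroblast and mural, 6 of 9 thymocyte, 3 of 4 B cell and 3 of 3 red cell genes with enough reads. Of 7 dendritic cell and macrophage genes 3 were lower and 1 was higher. In Ctr the globin gene Hba-a1 had 35526 reads and the endothelial gene Cldn5 3510, against 1478 and 91 in the knockdown library. The part of other cell types in the values below was not tested.

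A log2 ratio is given throughout as knockdown over Ctr of scaled reads, with a 95% interval that covers counting error only. A gene was called higher or lower when it had at least 50 reads over both libraries, a ratio of at least 2-fold and an interval that excluded 0. By this rule 3 of the 43 proteasome genes were higher (Psma8, Psmd1 and Psmd12) and 1 was lower (Psmb11), whereas 19.1% of all 16831 genes with 50 reads were higher and 18.6% were lower. Among the 8586 genes with at least 1000 reads, which include 42 of the 43, 11.3% were higher and 9.67% were lower. The median log2 ratio was 0.12 over the proteasome genes and 0.00 over all genes. The ratios lay close together, with 34 of 43 (79.1%) within 0.5 of 0 on the log2 scale, against 38.3% of all genes and 50.8% of genes with at least 1000 reads. Summed over the 43 genes, scaled reads came to 171876 in the knockdown library and 173130 in Ctr, or 0.716% and 0.722% of the reads that each library had over 1 transcript per gene.

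**Figure D1:**
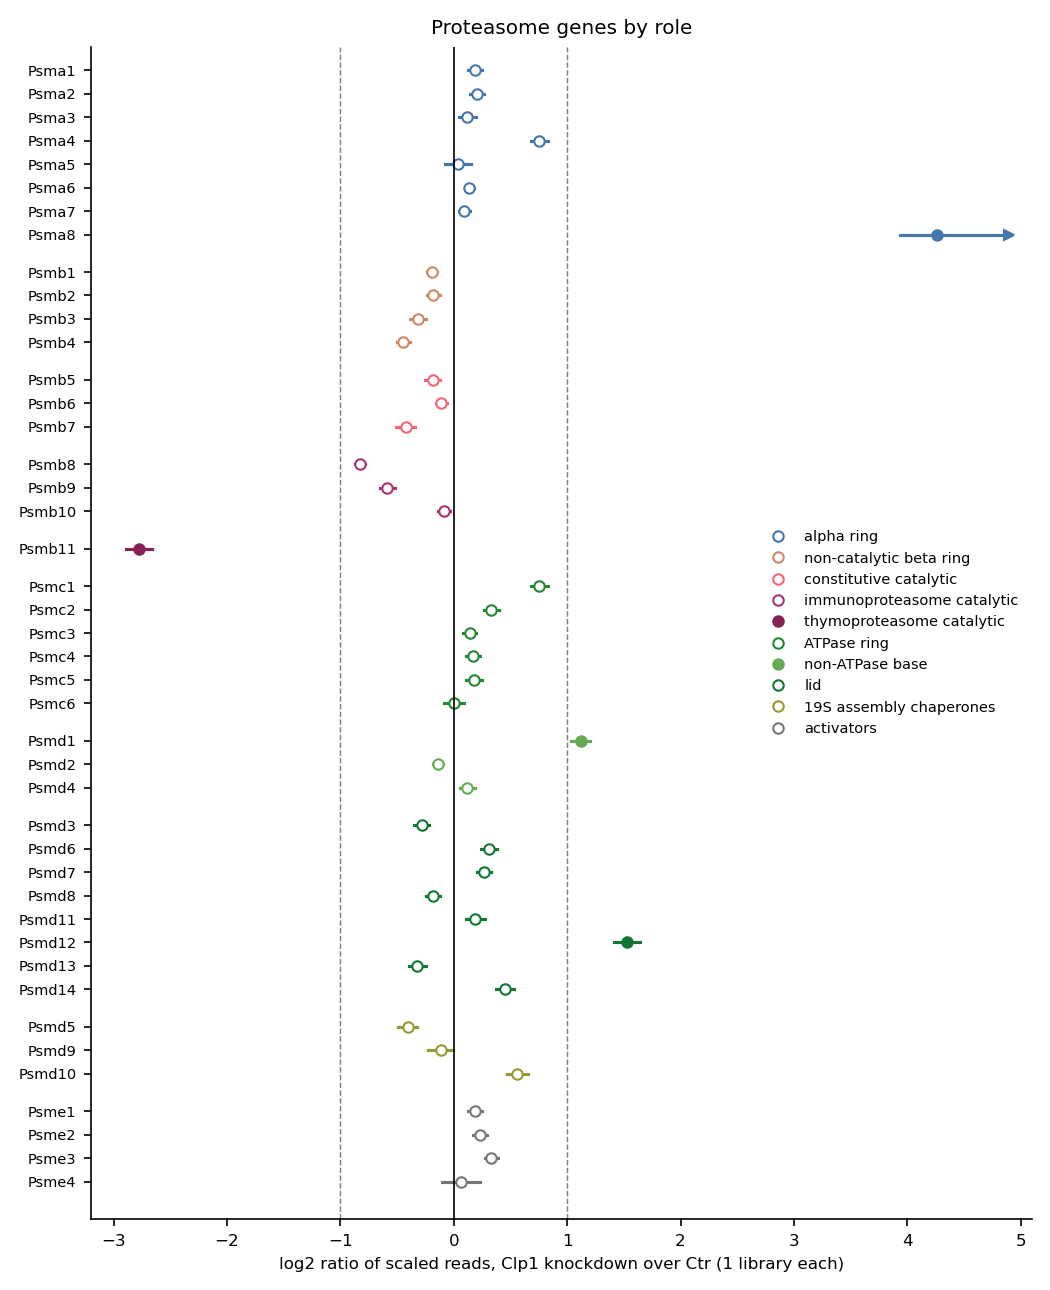
Log2 ratio of scaled reads, Clp1 knockdown over Ctr (horizontal axis), for each of the 43 proteasome genes (rows, grouped and coloured by role). Bars are 95% counting intervals, filled points are called and dashed lines mark 2-fold. The arrow on Psma8 marks an interval with no upper limit, because Ctr had 0 reads. All 11 beta subunits lie left of 0, with Psmb11 at -2.78, and all 8 alpha subunits lie right of 0. Of all 16831 genes with at least 50 reads, 8387 had a ratio below 0. With the trend on GC content subtracted, 3 beta subunits lie above 0 and 5 alpha subunits below it.

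Psmb11, the thymoproteasome subunit, was the proteasome gene called lower. It had 694 reads in the knockdown library against 3655 in Ctr, a log2 ratio of -2.78 (-2.89 to -2.66), so that the knockdown library held 14.6% of the Ctr level. The gene consists of 1 exon on the plus strand of chromosome 14 (mm9, chr14:55244147-55248393), and no other annotated exon overlaps it. Per length of transcript, its level was 5.97 RPKM (reads scaled to transcript length and library total) in the knockdown library and 40.9 RPKM in Ctr. This bulk measurement cannot separate fewer cells that express a gene from less RNA per cell. Psmb11 is itself a cTEC gene. Of 10 cTEC markers 5 were lower in the knockdown library (Ackr4, Cxcl12, Dll4, Prss16 and Ly75), against 18.6% of all genes with at least 50 reads. The median log2 ratio of the 10 was -0.69. The serine protease gene Prss16 had 2785 reads in the knockdown library against 5926 in Ctr, and the chemokine scavenger gene Ackr4 had 105 against 474. The other 5 markers (Ctsl, Tbata, Foxn1, Ccl25 and Enpep) had ratios between -0.06 and 0.32 and were not called. None of the 10 was at 0 reads in either library, and their summed level was 46282 scaled reads in the knockdown library and 52267 in Ctr. The sort took cells with low or intermediate Ly51, a surface protein encoded by Enpep and high on cTECs, and Enpep had 394 reads in the knockdown library and 288 in Ctr. The part of cTECs in the Psmb11 value was not tested, nor was the part of other cell types in the 5 lower cTEC markers.

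The immunoproteasome subunits did not reach 2-fold and moved unequally. Psmb8 (beta5i) had 7536 reads in the knockdown library and 10303 in Ctr, with a log2 ratio of -0.83 (-0.87 to -0.79). Psmb9 (beta1i) had 3665 reads in the knockdown library and 4232 in Ctr, with a ratio of -0.59 (-0.65 to -0.52). Psmb10 (beta2i) had 7017 reads in the knockdown library and 5731 in Ctr, with a ratio of -0.09 (-0.14 to -0.04). The intervals of these 3 genes do not overlap one another. Psmb8 and Psmb9 lie close together in the MHC region, and 5.79% of the annotated exon bases of Psmb9 are shared with Tap1 and 6.83% of those of Psmb8 with another gene model. Per length, Psmb8 ranked first of the 43 genes in Ctr at 401 RPKM and stood at 225 RPKM in the knockdown library, where 6 proteasome genes were above it.

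None of the constitutive catalytic subunits was called. Psmb6 (beta1) had a log2 ratio of -0.11 (-0.16 to -0.06), Psmb5 (beta5) of -0.19 (-0.25 to -0.12) and Psmb7 (beta2) of -0.42 (-0.50 to -0.34). The median ratio was -0.19 for the constitutive subunits (0.21 after subtraction of a trend on GC content), -0.59 for the immunoproteasome subunits and -2.78 for Psmb11. Summed scaled reads in the knockdown library were 87.5% of Ctr for the constitutive subunits and 69.1% for the immunoproteasome subunits.

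Subunits that compete for a position were then compared within each library, which needs no scaling between libraries. A trend on GC content does not cancel where the 2 genes differ in it, as Psmb10 (56.5%) and Psmb7 (48.7%) do. No alternative with that trend subtracted was run for these ratios. At beta1, the ratio of Psmb9 to Psmb6 per kilobase was 0.620 in the knockdown library and 0.861 in Ctr, a log2 change of -0.48 (-0.56 to -0.40). At beta5, the ratio of Psmb8 to Psmb5 was 1.25 in the knockdown library and 1.95 in Ctr, a change of -0.64 (-0.72 to -0.57). At beta2 the change had the opposite sign, with a ratio of Psmb10 to Psmb7 of 2.15 in the knockdown library and 1.70 in Ctr (0.34, 0.24 to 0.43). None of these shifts reached 2-fold. The shift of Psmb11 against Psmb5 did, with 0.0331 in the knockdown library and 0.199 in Ctr (-2.59, -2.72 to -2.46), and against Psmb8 the log2 change was -1.95 (-2.07 to -1.82).

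As a share of the reads per kilobase at beta5, Psmb11 made up 1.45% in the knockdown library and 6.33% in Ctr. Psmb8 made up 54.7% in the knockdown library and 61.9% in Ctr, and Psmb5 43.8% in the knockdown library and 31.8% in Ctr. The Psmb11 transcript has a long distal 3'UTR with few reads, which lowers its density. Counted without that part, the Psmb11 share was 3.86% in the knockdown library and 18.9% in Ctr, and the share of Psmb8 was 53.0% in the knockdown library and 53.4% in Ctr. These are shares of transcripts and say nothing of assembled particles.

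**Figure D2:**
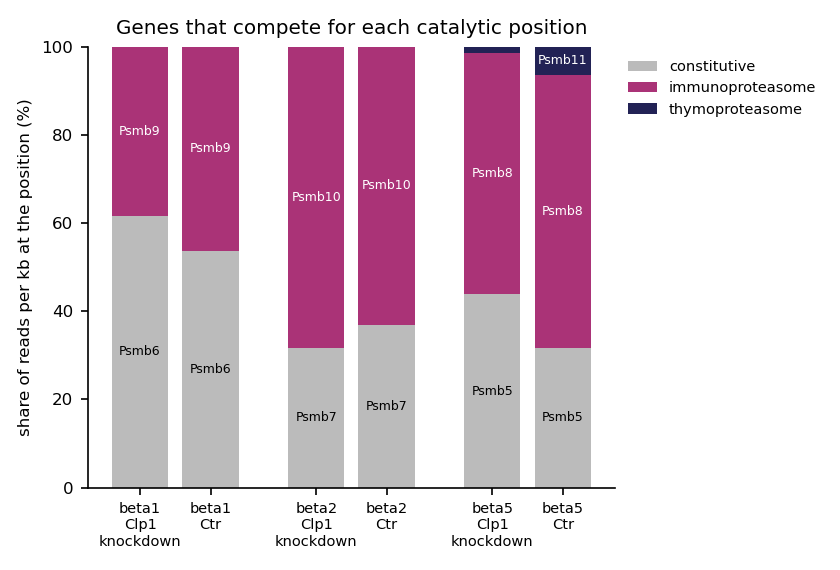
Share of the reads per kilobase (vertical axis, %) taken by each gene among those that compete for the beta1, beta2 and beta5 positions, with the knockdown library left of Ctr in each pair of bars (whole transcripts, 1 library each). The immunoproteasome share is smaller in the knockdown library at beta1 (38.3% against 46.3%) and beta5 (54.7% against 61.9%) and larger at beta2 (68.3% against 63.0%), and Psmb11 takes 1.45% against 6.33%.

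The measurement the study was made for is the d3'UTR ratio, the read density in the distal 3'UTR beyond the most proximal annotated poly(A) site over the density in the last exon up to that site. A rise means relatively more reads from the long 3'UTR isoform. It could be measured in 15 proteasome genes with a distal 3'UTR and at least 10 upstream reads in each library, with 0.5 reads added to each part. The median log2 change was -0.04 in these genes and 0.02 in all 7219 transcripts measured. It was 0.037 with no reads added, over the 14 genes that had distal reads in both libraries, so the median has no stable sign. With the same 2-fold and interval rule, the ratio rose in 3 of the 15 (Psmb11, Psmb6 and Psma3) and fell in 2 (Psmd12 and Psmd11), while 13.3% of all transcripts rose and 10.6% fell.

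Psmb11 showed the largest rise of the 15. Its distal 3'UTR of 3086 bases had 169 reads in the knockdown library and 185 in Ctr, whereas the 1144 bases upstream, which hold the coding sequence, had 511 in the knockdown library and 3398 in Ctr. The d3'UTR ratio was thus 0.123 in the knockdown library against 0.0202 in Ctr, a log2 change of 2.60 (2.27 to 2.93). The distal part alone had a log2 ratio of -0.51 (-0.82 to -0.20) and the upstream part of -3.11 (-3.25 to -2.98), so the change came with fewer upstream reads rather than more distal reads.

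In Psmb6 the distal part of 207 bases had 104 reads in the knockdown library and 31 in Ctr, and the ratio was 0.0450 against 0.0164 (log2 change 1.46, 0.87 to 2.04). In Psma3, an alpha subunit, the 419 distal bases had 308 reads in the knockdown library and 111 in Ctr, and the ratio was 0.186 against 0.0824 (1.18, 0.82 to 1.53). In these 2 genes the upstream reads differed little, with log2 ratios of -0.10 in Psmb6 and -0.09 in Psma3, and the distal reads differed by 1.37 and 1.09. The total of either gene was not called.

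In the other direction, the lid subunit Psmd12 had 190 distal and 636 upstream reads in the knockdown library against 71 and 104 in Ctr, for a ratio of 0.325 against 0.743 (-1.19, -1.69 to -0.70). Psmd11, also a lid subunit, had only 2 distal reads in the knockdown library and 11 in Ctr, and its change of -2.99 (-4.97 to -1.005) rests on those 13 reads. Of the remaining 10 genes, Psmd10 (0.52, 0.24 to 0.80) and Psmd8 (0.25, 0.07 to 0.44) had intervals above 0, and Psmb1 (-0.46, -0.70 to -0.21) had one below 0. Psma1 had 0 distal reads in both libraries. Its change of -0.62 (-6.28 to 5.04) comes from the added 0.5 reads alone, though it is counted among the 15. The 6 others (Psme3, Psmd5, Psmd14, Psmd9, Psmc6 and Psma2) had intervals that included 0.

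**Figure D3:**
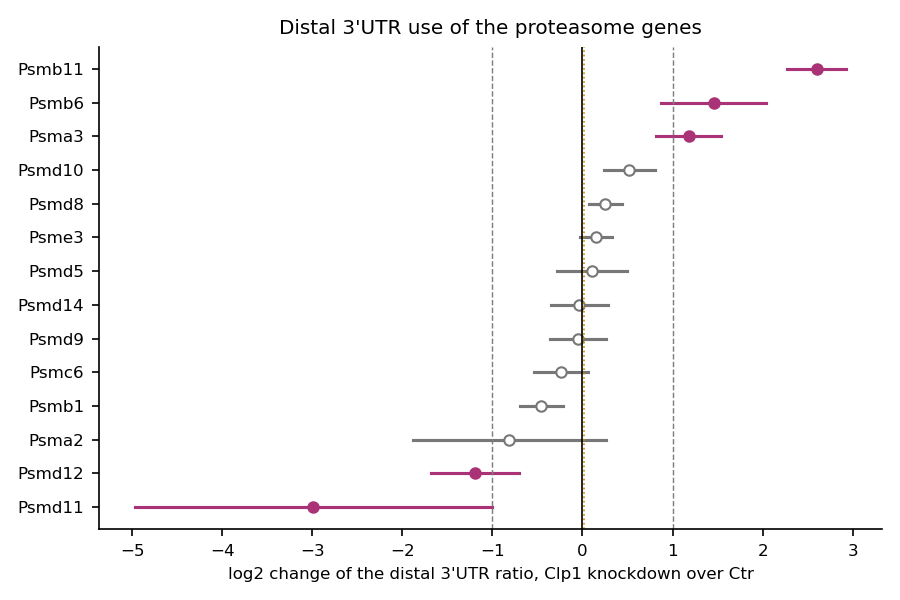
Log2 change of the d3'UTR ratio, Clp1 knockdown over Ctr (horizontal axis), in the 14 proteasome genes with distal reads; bars are 95% intervals from the 4 read counts, filled points passed 2-fold with an interval that excluded 0, dashed lines mark 2-fold and the dotted line the median of all transcripts (0.02). Psmb11, Psmb6 and Psma3 lie at the top between 1.18 and 2.60, and Psmd12 and Psmd11 at the bottom.

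The bases that end at the proximal site are shown for 4 of the genes whose ratio changed, since the hexamer that recruits the cleavage complex usually lies there. A proximal site could be placed in the mm9 annotation for 11 of the 15 genes, by a last exon whose length matched within 20 bases, and Psmd12 was not among them. The 30 bases up to the site were searched on the transcript strand for AATAAA or, failing that, ATTAAA, so that each window was counted once, and capitals mark the match. The windows are Psmb11 chr14:55245278-55245307, Psmb6 chr11:70341124-70341153, Psma3 chr12:72095462-72095491 and Psmd11 chr11:80285439-80285468, all on the plus strand of mm9, and the last exon of Psma3 differed from the annotated one by 2 bases.
Psmb11: ctccttctgcctctaaagtgactaaacaaa
Psmb6: cgcagaagctAATAAAcagtttgttaaaga
Psma3: accgattttcATTAAAttttgtcttataaa
Psmd11: ttctaAATAAAaggaaaaaggcttacacta
In Psmb6 and Psma3 the hexamer ends 14 bases before the site and in Psmd11 19 bases before it. The Psmb11 window holds neither hexamer. Over the 11 genes, 5 windows held AATAAA, 4 held ATTAAA and 2 (Psmb11 and Psme3) held neither. Of the 5071 windows placed in the same way over all transcripts, 37.7% held AATAAA, 13.9% held ATTAAA and 48.4% held neither. A match describes the letters of a window and not the use of a site.

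The beta and alpha subunits lay on opposite sides of 0 before the trend on GC content was subtracted, but not after it. All 11 beta subunits had a log2 ratio and an interval below 0 (median -0.31). All 8 alpha subunits had a ratio above 0 (median 0.16). Of all 16831 genes with at least 50 reads, 8387 had a ratio below 0 (7089 with an interval below 0) and 8444 a ratio above 0. Psma8, counted among the 8, met that minimum through the knockdown library alone, so its sign was set by the rule. After the trend on GC content was subtracted, 8 beta subunits lay below 0 and 3 above, and 5 alpha subunits lay below 0 and 3 above. The non-catalytic beta subunits, which complete the inner rings, ranged from -0.18 (Psmb2) and -0.19 (Psmb1) through -0.31 (Psmb3) to -0.44 (Psmb4). Summed over the 11 beta genes, the knockdown library held 74.8% of the scaled reads of Ctr. In each of the 10 beta genes with more than 1 exon, the earlier exons and the last exon both had ratios below 0, and 6 of 8 alpha genes had both above 0.

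Among the alpha subunits, Psma4 had 4779 reads in the knockdown library and 2178 in Ctr (0.76, 0.68 to 0.83). Psma1, Psma2, Psma3, Psma6 and Psma7 had ratios between 0.09 and 0.21, and the interval of Psma5 (0.04) included 0. Psma6 was the alpha gene with the highest level, at 402 RPKM in the knockdown library and 366 RPKM in Ctr. Psma8, which encodes the alpha subunit of the testis proteasome, rose to 75 reads in the knockdown library against 0 in Ctr, which is at least 19.2-fold higher when Ctr is set to a floor of 3 reads. Of these reads, 24 lay in the earlier exons and 48 in the last exon, and the level was 1.62 RPKM. Psma8 reached the minimum of 50 reads through the knockdown library alone. Of 4 germ cell markers with at least 50 reads, Dazl (160 reads in the knockdown library against 9 in Ctr) and Ddx4 (66 against 3, log2 ratio 4.08, 2.47 to 6.40) also passed it through that library alone. The others were not called, Tex14 with 240 reads in the knockdown library and 96 in Ctr and Sycp3 with 40 and 35. Of the 4, 2 were thus called higher, against 19.1% of all genes with at least 50 reads. The counts of these germ cell genes are given as values beside Psma8, and their relation to it was not tested.

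**Figure D4:**
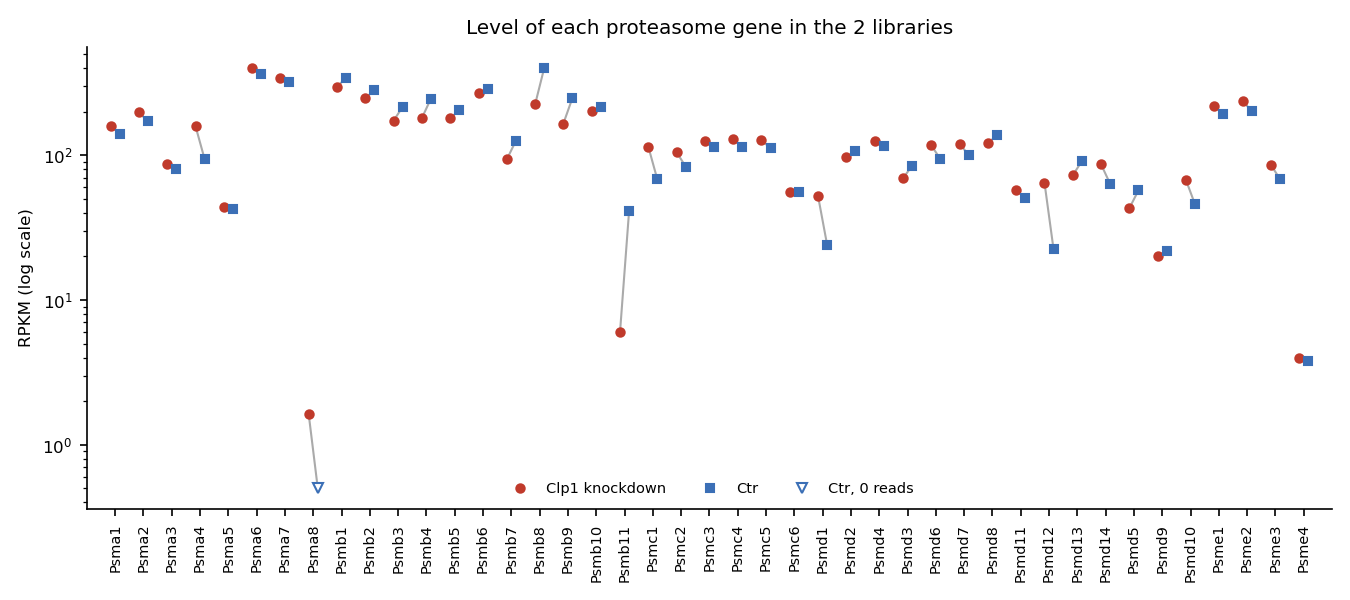
Level of each proteasome gene in RPKM (vertical axis, log scale) in the Clp1 knockdown library (circles, left) and the Ctr library (squares, right), with genes ordered by role and 1 library per group. Most pairs are nearly level. Psmb11 (5.97 against 40.9 RPKM), Psmd1 (52.1 against 24.0 RPKM) and Psmd12 (64.7 against 22.5 RPKM) stand out, and the open triangle marks Psma8, which had 0 reads in Ctr.

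The 19S regulatory particle recognises and unfolds substrates. Its ATPases form the ring that feeds the barrel. They had ratios above 0 in 6 of 6 genes (median 0.17), against 8444 of all 16831 genes with at least 50 reads. After the GC trend was subtracted, 5 of the 6 ATPase genes were above 0. Psmc1 was the farthest from 0, with 4692 reads in the knockdown library and 2140 in Ctr (0.75, 0.68 to 0.83). Psmc2 followed at 0.33, Psmc5, Psmc4 and Psmc3 lay between 0.14 and 0.18, and Psmc6 was at 0.00 with an interval of -0.08 to 0.09.

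Of the non-ATPase subunits of the base, Psmd1, a large scaffold that docks ubiquitin receptors, rose to 4646 reads in the knockdown library against 1645 in Ctr (1.12, 1.04 to 1.20). The difference lay in the earlier exons, with 4323 reads in the knockdown library and 1488 in Ctr (1.16, 1.08 to 1.25), while the last exon had 90 reads in the knockdown library and 79 in Ctr (-0.19, -0.64 to 0.26). Annotated exons of Armc9 and Htr2b share 13.1% of the Psmd1 exon bases, and with the GC trend subtracted its ratio was 0.89 and it was no longer called. The companion scaffold Psmd2 had 8084 reads in the knockdown library and 6841 in Ctr (-0.14, -0.18 to -0.09), and the ubiquitin receptor Psmd4 had a ratio of 0.12 (0.05 to 0.19).

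Psmd12, a structural subunit of the lid, had 3053 reads in the knockdown library against 814 in Ctr, a log2 ratio of 1.53 (1.42 to 1.64). Both its earlier exons (2069 reads in the knockdown library and 600 in Ctr, 1.41) and its upstream last exon (636 and 104, 2.23) were higher, and no annotated exon of another gene overlaps it. Psmd14, the deubiquitinase of the lid, had 3658 reads in the knockdown library and 2059 in Ctr (0.45, 0.37 to 0.53). The other lid subunits fell on both sides of 0, with Psmd6 at 0.31, Psmd7 at 0.27 and Psmd11 at 0.19, and with Psmd8 at -0.18, Psmd3 at -0.28 and Psmd13 at -0.32. The lid median was 0.23, and 0.09 with the GC trend subtracted. After that subtraction 7 of the 8 lid genes lay above 0 and 1 below, against 7122 of 13935 genes above 0. Psmd3 was then at 0.17, Psmd8 at 0.01 and Psmd14 at 0.06.

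The 3 chaperones that help assemble the regulatory particle also differed among themselves. Psmd10 had 2689 reads in the knockdown library and 1403 in Ctr (0.56, 0.47 to 0.65), Psmd9 had a ratio of -0.11 (-0.23 to 0.00) and Psmd5 of -0.41 (-0.49 to -0.33). None was called.

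The activators, which open the gate in place of the 19S particle, differed little. Psme1 and Psme2, the interferon-inducible subunits of PA28, had ratios of 0.19 (0.13 to 0.24) and 0.23 (0.17 to 0.29). Psme3, the nuclear PA28 subunit, was at 0.33 (0.27 to 0.39), and Psme4 (PA200) was at 0.06 with an interval that included 0. Like Psmb8 and Psmb9, Psme1 and Psme2 are induced by interferon gamma, and their ratios had the opposite sign, with Psme1 at 219 RPKM in the knockdown library and 193 RPKM in Ctr and Psme2 at 238 RPKM and 203 RPKM.

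GC content moved with the ratios of all genes. The trend over genes with at least 50 reads and a matched coding transcript (82.8% of them) was 0.46 at 40% GC, 0.02 at 50% and -0.30 at 55%. The alpha genes had a median GC content of 44.5% and the beta genes of 53.8%. With the trend subtracted, the median was -0.07 for the alpha subunits, -0.26 for the beta subunits, 0.21 for the constitutive catalytic subunits and -0.26 for the immunoproteasome subunits. All 4 non-catalytic beta subunits remained below 0 and Psmb10 was at 0.30. Psmb11 (50.7% GC) was at -2.76 and remained called, as did Psmd12 and Psma8.

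**Figure D5:**
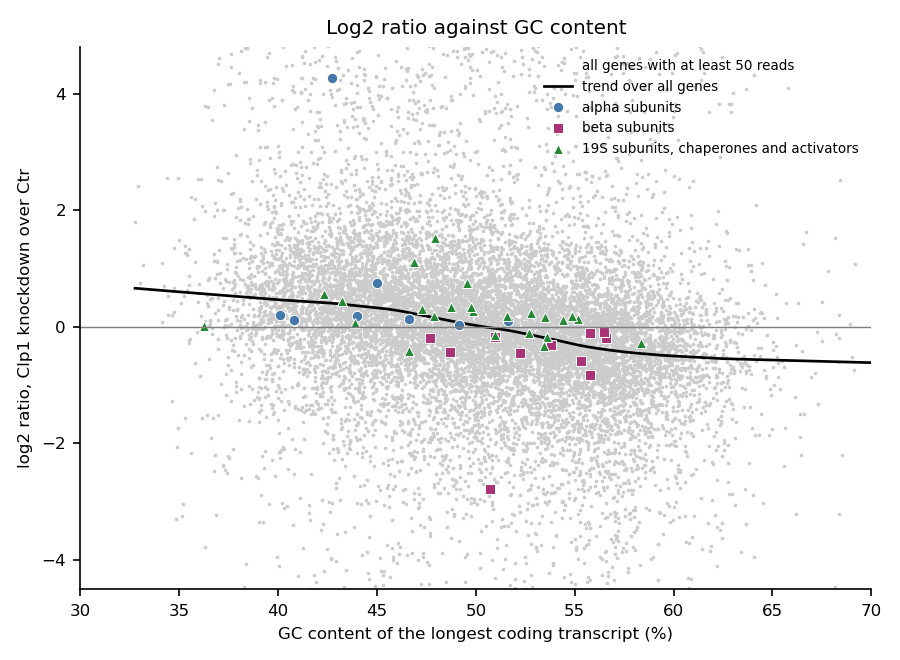
Log2 ratio, Clp1 knockdown over Ctr (vertical axis), against GC content of the longest coding transcript (horizontal axis, %), for all genes with at least 50 reads (grey), with alpha subunits (circles), beta subunits (squares) and the other proteasome genes (triangles) marked and the trend over all genes as a line. The trend passes from 0.46 at 40% GC to -0.30 at 55% GC, and Psmb11 at 50.7% GC lies far below it.

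Genes that act with the proteasome were given as fixed lists. Of 17 genes for assembly and associated proteins, 2 were higher and 0 lower (median 0.10), beside the same background of 19.1% and 18.6%. These were Ecpas, which encodes a proteasome adaptor and scaffold, with 1260 reads in the knockdown library against 378 in Ctr (1.36, 1.19 to 1.53), and the shuttle factor gene Ubqln1, with 9742 reads against 3746, at the 2-fold threshold with an interval of 0.95 to 1.06 on the log2 scale. The maturation factor gene Pomp had a ratio of 0.10 (0.03 to 0.17). Among 11 regulators of proteasome genes none was called (median -0.04). Nfe2l1, the transcription factor of the proteasome bounce-back response, had 11193 reads in the knockdown library and 8838 in Ctr (-0.04, -0.08 to 0.00).

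Of 13 genes of MHC class I peptide loading, which handle the peptides that the proteasome makes, 2 were higher and 0 lower (median 0.23), beside 19.1% of all genes higher and 18.6% lower. Both of the higher genes encode chaperones of the endoplasmic reticulum, Pdia3 (1.58, 1.55 to 1.62) and Canx (1.44, 1.398 to 1.49). The peptide transporter genes Tap1 and Tap2 had ratios of -0.24 and -0.34, the tapasin gene Tapbp of -0.72 and the class I transactivator gene Nlrc5 of -0.58, and none of them was called. These were the only 4 of the 13 genes with a ratio below 0. The other 9 had ratios and intervals above 0, as did 7167 of all 16831 genes with at least 50 reads. Irf1, a transcription factor that acts on immunoproteasome genes, had 15058 reads in the knockdown library and 12011 in Ctr (-0.05, -0.09 to -0.02).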

How the data were processed

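RNA of GFP+ (Clp1 knockdown) and GFP- (Ctr) mTEChi of 1 mouse was made into SMARTer and Nextera libraries for single-end sequencing. According to the processing notes of the submission, the authors aligned reads to mm9 with Bowtie 1.0.0, counted them with bedtools and ran DESeq. The deposited counts are unnormalized reads within exons of 30794 RefSeq transcripts and, in another table, within 4 parts of each transcript with their lengths. The sources used here do not give the use of strand, so overlapping genes cannot be told apart, nor can near-identical copies. The authors' differential expression table holds scaled counts, folds and p-values from 1 library per group and was not used.

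Symbols came from a RefSeq table of GRCm38.p6 (30216 transcripts matched), and coordinates, sequence and GC content from mm9 with GENCODE vM1. Libraries were scaled by size factors, the median of ratios (1.14 knockdown, 0.877 Ctr). Log2 ratios carry exact (Clopper-Pearson) 95% intervals, and ratios of 4 counts Wald intervals. PCR duplicates are not independent molecules, so intervals and floors cover counting error only. A library with 0 reads was set to a floor of 3 reads. GC trends used lowess (share 0.3) in statsmodels 0.14.6, and TMM factors edgeR 4.0.16. Calculations were tested on simulated data. Every proteasome gene was named or counted. Of other lists, up to 3 genes called in each direction were named by the bound farthest from 0, and Aire, Pomp, Nfe2l1, Irf1, Tap1, Tap2, Tapbp, Nlrc5, Tex14, Sycp3 and the cTEC genes outside that rule were added after their values were seen. The members and lists were chosen with earlier results of these data known. The list of interferon gamma signalling genes is not reported here as a whole. Alternatives covered scaling, GC content, isoforms, the part counted, read minimums, depth and the fold threshold.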

Additional observations from a re-analysis of the deposited data

How the results depend on the processing

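With 1 library per group no replicate could be left out, and no difference has a replicate check. No paired analysis was possible because each group has 1 library. Depth limited the distal 3'UTR value of Psmd11 and the fold of Psma8. The distal part of Psma1 is 61 bases long, little more than a read of 50 bases. It had 0 reads, beside 2517 upstream reads in the knockdown library and 1637 in Ctr. No called gene changed sign under the alternatives run, but medians near 0 did. Of 91 summary values under alternatives, 83 were scored as kept and 8 as moved, by wide limits. A count of called genes has no spread and was scored as kept within 1.5-fold of the main count. The median of a role group with 2 to 8 genes was scored as kept anywhere in the full range of its genes. The sign change of the assembly chaperones given below was thus scored as kept. With 1.5-fold in place of 2-fold, 5 proteasome genes were higher (Psma4 and Psmc1 added) and 3 lower (Psmb8 and Psmb9 added). Without Psma8, which a minimum of 100 reads drops, 2 were higher, and with GC subtracted 2 were higher, without Psmd1. Subtracting the GC trend gave medians of -0.068 for the alpha ring, 0.21 for the constitutive catalytic subunits and 0.33 for the activators, against 0.16, -0.19 and 0.21 before, and turned the assembly chaperones from -0.11 to 0.017. The median d3'UTR change was 0.037 with no pseudocount, against -0.035. Without the distal 3'UTR, Psmb11 was at -3.11, Psmb11 to Psmb5 at -2.92 and Psmb11 to Psmb8 at -2.28. Of 258 values of single genes, 219 stayed within their counting interval. Of the other 39, 35 moved with GC and 4 without the distal 3'UTR, and scaling, TMM, summed transcripts and thinning moved none.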
